A study of Mus musculus with 6 samples.

Results

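MHC class II molecules present peptides from the endocytic pathway to CD4 T cells. Dendritic cells, B cells and macrophages carry them constitutively, and many other cells gain them after exposure to interferon gamma. The switch is Ciita, the class II transactivator, which does not bind DNA itself and is recruited by RFX, NF-Y and CREB proteins bound to the X and Y boxes of class II promoters. In adipose tissue, class II is best known from macrophages and other immune cells. The genes described here are Ciita, the invariant chain gene Cd74, the peptide-binding chains H2-Aa, H2-Ab1 and H2-Eb1, and H2-DMa, H2-DMb1 and H2-Oa, whose products load peptide or control the loading. They were taken by name, and a gene was compared when a transcript cluster, a group of array probes read together, carried its symbol and no other. Of the 8 genes, 7 had such a cluster, among 19938 genes in all, and H2-DMb1 was measured only in a cluster shared with H2-DMb2.

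Ciita acts through the X and Y boxes, so promoter stretches in which a search matched their patterns are shown. The promoters differed in which of the 2 patterns they matched. RefSeq promoters of mouse build GRCm38.p6, from 250 bases before to 50 bases after the start, were at hand for 5 of the 8 genes (H2-Aa, H2-Eb1, H2-DMa, H2-DMb1 and H2-Oa), all on chromosome 17. Capitals mark a Y box, searched as ATTGG, and an X box, searched as a pattern with 3 open positions of which GCAACTGATG is 1 form, both on either strand, and the 2 motifs do not overlap in these stretches. H2-Eb1 was read at chr17:34305617-34305916, H2-DMb1 at chr17:34152941-34153240 and H2-Oa at chr17:34092129-34092428, all on the plus strand, and H2-Aa at chr17:34287774-34288073 on the minus strand. H2-Eb2, at chr17:34325425-34325724 on the plus strand, is a class II gene next to H2-Eb1.
H2-Eb1: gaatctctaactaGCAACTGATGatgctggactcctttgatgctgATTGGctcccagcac
H2-DMb1: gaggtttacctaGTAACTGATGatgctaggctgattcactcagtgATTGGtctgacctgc
H2-Eb2: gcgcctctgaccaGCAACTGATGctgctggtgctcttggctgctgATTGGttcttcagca
H2-Aa: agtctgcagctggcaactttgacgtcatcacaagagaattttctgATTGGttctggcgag
H2-Oa: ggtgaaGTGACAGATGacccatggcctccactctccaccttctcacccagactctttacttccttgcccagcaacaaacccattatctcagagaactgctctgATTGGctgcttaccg
In H2-Eb1 and H2-Eb2 the X box began 32 bases before the Y box, and in H2-DMb1 33 bases before it. In H2-Oa the match to the X box pattern lay 97 bases before the Y box. Whether that match is a working X box was not tested. H2-Aa, added after its sequence was seen, held a Y box and no match to the X box pattern. The search misses X boxes spelled otherwise, so a promoter without a match may still hold one. H2-Eb1 also held a Y box on the other strand, downstream of the stretch shown. Of 32851 promoters of the same length, 37.4% held a Y box, 2.97% an X box, and 21 (0.0639%) an X box that began 25 to 40 bases before a Y box on the same strand, a spacing chosen after the sequences were seen. No GAS (TTCNNNGAA), the motif of the interferon gamma response, and no ISRE, that of type I interferons, was found in the promoters of the 5 genes. Of all promoters, 8.30% held a GAS and 3.44% an ISRE, so their absence from 5 genes does not set these apart. Ciita, Cd74 and H2-Ab1 had no promoter entry and were not searched. The upstream promoter entry of H2-DMa, which has 2 entries, held none of the 4 motifs, and its other entry held a Y box only.

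The cells were immortalized preadipocytes, sorted into HBC and LBC, from the stromal vascular fraction of inguinal white fat of male 129SVE mice. HBC were kept for high binding and LBC for low binding of FcsFNDC4, an Fc fusion of the soluble part of FNDC4, over 20 rounds of sorting, and neither group had another treatment named. At passage 20, RNA of each population was read on 3 Affymetrix mouse gene arrays, which are technical replicates. Each group is 1 sorted population, so p-values cover technical spread and say nothing of how independent sorts would vary. LBC replicates 2 and 3 carry HBC as their source name, whereas their titles, descriptions and phenotypes read LBC, and the arrays were grouped by title. Values are intensities on a linear scale, with medians of 122 to 132 in HBC and 131 to 134.6 in LBC over 35556 clusters. Calls needed a limma adjusted p under 0.05 as well as a fold above 1.5 on log2(intensity + 16). By this rule 507 genes were higher in HBC (2.54% of those tested) and 225 lower (1.13%), together 3.67%. Olfactory receptor genes, which are silent in most tissues, gave a reference for dim signal. The means of 1027 of them ran between the 10th and 90th percentiles of 13.8 and 83.95 in HBC, and 13.9 and 86.1 in LBC.

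None of the MHC class II genes was called between HBC and LBC, and apart from H2-DMa in HBC each had group means that more than 5% of olfactory receptor genes exceeded. Among the 7 genes read alone, limma called 0, against 3.67% of all genes. An unadjusted p under 0.05 was found for 1 gene (H2-DMa) by limma, against 29.9% of all genes (9.51% higher in HBC and 20.4% lower), and for 1 by the methods' t-test, against 24.7%, which called 0 of the 7 after adjustment. With the adjusted p alone, which 18.3% of all genes passed (6.93% higher in HBC and 11.4% lower), limma counted 0 as well. The 3 HBC and 3 LBC arrays did not overlap for 2 of the 7, 1 in each direction, and for 35.2% of all genes. The median log2 fold change of the 7 was -0.12, against -0.07 over all genes. The 95% intervals from limma ran from -0.37 at the lowest (H2-Ab1 and Cd74) to 0.37 at the highest (H2-DMa), so each of the 7 lay within a fold of 1.5 in either direction on the log2(intensity + 16) scale. Bulk arrays cannot tell fewer cells with a transcript from less of it per cell, and at intensities this low the scale makes changes smaller.

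Ciita had intensities of 81.7, 74.6 and 86.8 in HBC replicates 1, 2 and 3, against 101, 97.1 and 83.5 in the LBC replicates. The groups overlapped, with LBC replicate 3 below HBC replicate 3. The log2 fold change was -0.18 (SE 0.089, limma adjusted p = 0.18), and without LBC replicate 3 it was -0.25, with a limma adjusted p of 0.023 and a fold below 1.5. On each array, between 88.1% and 92.3% of olfactory receptor genes were dimmer than Ciita, so its signal lay at the top of their range in both populations. Among 2667 genes of similar mean intensity, the pattern most like that of Ciita over the 6 arrays was that of Tssk6, at 70.6, 64.9 and 76.7 in HBC and 87.8, 83.0 and 72.1 in LBC. Its mean absolute difference from Ciita was 0.00985 on the log2 scale after each gene's mean was taken away, followed by Ttll6 (0.0138) and Gm13547 (0.0163). The median intensity of olfactory receptor genes was also lowest on HBC replicate 2 (32.1) and LBC replicate 3 (33.5) among the arrays of their groups, and highest in LBC replicate 1 (39.0). The part of this shared shift in the values of Ciita was not tested.

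Cd74 encodes the invariant chain, which fills the groove of new class II molecules and guides them to the endocytic pathway. It is among the most abundant transcripts of professional antigen-presenting cells. Here it read 43.1, 34.8 and 48.8 in HBC, against 52.7, 49.9 and 46.8 in LBC. HBC replicate 3 lay within the LBC values, and the log2 fold change was -0.18 (SE 0.092, limma adjusted p = 0.18), and -0.09 without HBC replicate 2, the lowest array. From 53.6% to 66.0% of olfactory receptor genes were dimmer on the HBC arrays, and 65.8% to 68.9% on the LBC arrays. The means of Cd74 lay above 59.8% of the reference in HBC and 67.7% in LBC, inside its range in both.

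H2-Aa and H2-Ab1 encode the alpha and beta chains of the A molecule, and H2-Eb1 the beta chain of the E molecule. H2-Aa read 63.7, 56.9 and 57.4 in HBC, against 59.9, 59.97 and 54.6 in LBC. The groups overlapped throughout, with a log2 fold change of 0.02 (95% interval -0.15 to 0.20, limma adjusted p = 0.89). H2-Ab1 read 47.6, 27.3 and 44.2 in HBC, against 43.8, 53.8 and 37.6 in LBC. HBC replicate 2 was the lowest of the 6 arrays and gave this gene its wide spread, with a log2 fold change of -0.14 (95% interval -0.37 to 0.09, limma adjusted p = 0.41), which was 0.03 without that array. The E molecule chain H2-Eb1 read 96.3, 91.0 and 112 in HBC and 119.8, 114 and 86.6 in LBC. The lowest and the highest value were both in LBC, and the log2 fold change was -0.08 (95% interval -0.28 to 0.12, limma adjusted p = 0.63). With 1 array left out it ran from -0.20, without LBC replicate 3, to -0.0016, without LBC replicate 1, and leaving out any array but HBC replicate 1 moved it by over 1.5 times. Its means of 99.8 in HBC and 106.9 in LBC were above 93.7% and 94.0% of olfactory receptor genes.

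H2-DMa encodes a chain of the DM molecule, which frees class II from the last piece of the invariant chain so that other peptides can bind. It read 116.5, 116 and 131 in HBC, above 96.5% of olfactory receptor genes in mean, against 108, 98.5 and 104 in LBC, above 93.6% of them. All HBC arrays lay above all LBC arrays, as they did for 10.1% of all genes. The log2 fold change was 0.20 (95% interval 0.02 to 0.37, limma adjusted p = 0.11). The limma adjusted p was 0.0041 with cyclic loess, 0.0070 with quantile normalization and 0.049 with median centring, and between 0.054 and 0.38 under the other alternatives, while the fold stayed below 1.5 under every one. H2-Oa encodes a chain of the DO molecule, which restrains DM. It read 76.1, 88.9 and 90.7 in HBC, against 92.6, 93.0 and 94.7 in LBC. The groups did not overlap, as for 25.1% of all genes in this direction, and the log2 fold change was -0.12 (SE 0.086, limma adjusted p = 0.39), and -0.05 without HBC replicate 1.

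H2-DMb1 and H2-DMb2 encode alternative partner chains of H2-DMa, and the array reads them in 1 cluster, so which of them it reads cannot be told apart. The 60 bases of the H2-DMb1 promoter shown above matched those of H2-DMb2 at 51 positions, but the H2-DMb2 promoter held a Y box, no match to the X box pattern and a GAS, whose letters read the same on both strands. The shared cluster read 82.1, 91.8 and 89.5 in HBC, against 60.4, 59.6 and 54.98 in LBC. The 3 HBC arrays lay above the 3 LBC arrays, as for 8.21% of all clusters. In a fit over every transcript cluster, the log2 fold change was 0.48 (95% interval 0.31 to 0.66, limma adjusted p = 0.0054). This is a fold of 1.40 on the intensity + 16 scale, which did not reach the threshold of 1.5, though the interval extended past it. The ratio of the group means was 1.5. Over the alternatives the log2 fold change ran from 0.35, with an offset of 50, to 0.58, with an offset of 1, below the fold threshold throughout. Over every cluster, 2.82% were called (1.88% higher in HBC and 0.942% lower), 8.56% passed the adjusted p alone (3.77% higher and 4.8% lower), and in 30.2% the groups did not overlap (22% with HBC lower). Without LBC replicates 2 and 3, the arrays whose source names read HBC, the log2 fold change was 0.44 and the limma adjusted p was 0.12. The cluster lay above 91.1% of olfactory receptor genes in HBC and above 75.4% of them in LBC. Among the 7 genes read alone, 3 had a mean above the 90th percentile of olfactory receptor genes in HBC (H2-DMa, H2-Eb1 and H2-Oa) and 4 in LBC (these and Ciita). Against the 95th percentile, 109 in HBC and 112 in LBC, H2-DMa was the 1 gene above it in HBC, and 0 were above it in LBC.

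**Figure D1:**
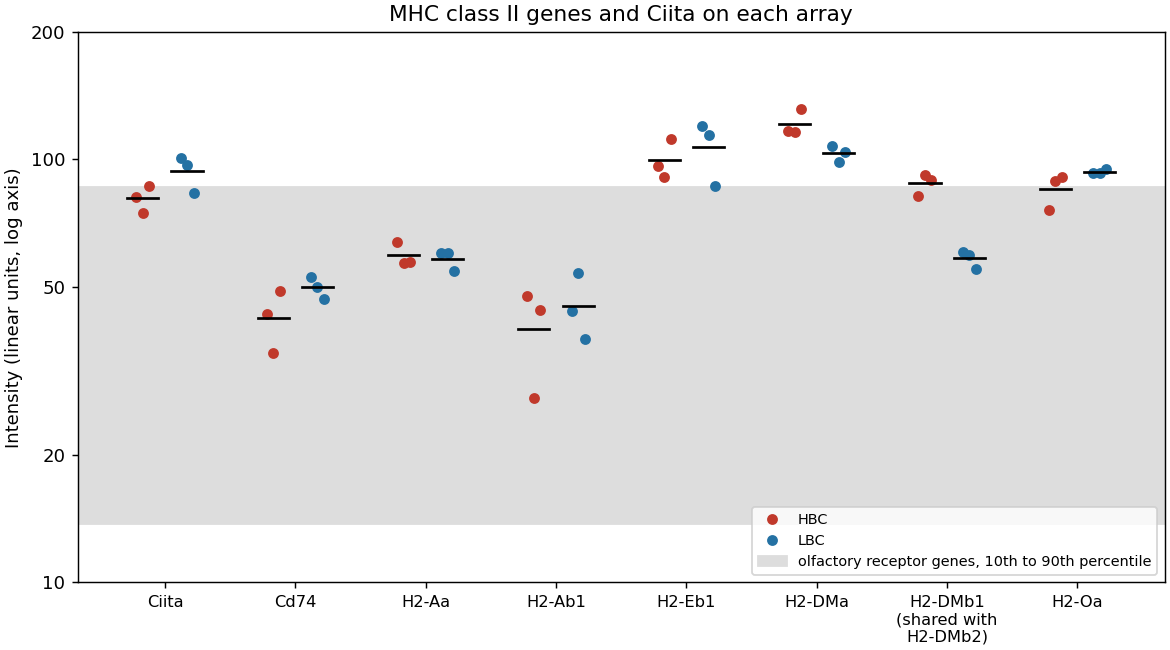
Array intensities, linear units drawn on a log axis, for the clusters of the 8 genes, with 3 HBC arrays in red, 3 LBC arrays in blue, black lines at the group means and a grey band for the 10th to 90th percentile of 1027 olfactory receptor genes. Cd74, H2-Aa and H2-Ab1 lie inside the band in both groups, H2-DMa lies above it, and the shared cluster of H2-DMb1 and H2-DMb2 is higher in HBC.

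The class II genes other than Ciita and Cd74 lie on chromosome 17 in a row that is broken by genes of the class I pathway. Ciita lies on chromosome 16 and Cd74 on chromosome 18. Within the row only the class I pathway genes were called. In RefSeq order the row begins with H2-Oa, Brd2, H2-DMa, H2-DMb2 and H2-DMb1. Psmb9, Tap1, Psmb8 and Tap2 follow, which encode 2 subunits of the immunoproteasome and the 2 subunits of the transporter that carries peptides to class I. After them come H2-Ob, H2-Ab1, H2-Aa, H2-Eb1, H2-Eb2 and H2-Ea. The 4 class I pathway genes were called higher in HBC, whereas none of the class II genes on either side was called. Psmb9, the first after H2-DMb1, read 684, 808 and 570 in HBC, against 143, 154 and 107 in LBC, a log2 fold change of 2.22 (SE 0.11, limma adjusted p = 4.3e-16). Tap1 read 1149, 1371 and 972 in HBC, against 190.1, 204 and 141 in LBC (log2 fold change of 2.60). Psmb8 and Tap2 had log2 fold changes of 1.90 and 1.35. The next gene, H2-Ob, the partner chain of H2-Oa, read 85.4, 79.6 and 83.9 in HBC, against 82.9, 90.7 and 86.0 in LBC (log2 fold change of -0.05, limma adjusted p = 0.72). Brd2, a bromodomain gene inside the row, was bright in both groups, with means of 1643 in HBC and 1493 in LBC and a log2 fold change of 0.14. At the far end, H2-Eb2 averaged 50.8 ± 5.07 in HBC and 52.9 ± 6.91 in LBC (SD, n = 3 arrays each). H2-Ea, annotated in RefSeq as a transcribed pseudogene of the E alpha chain, averaged 53.5 in HBC and 56.8 in LBC. The log2 fold changes of H2-Eb2, H2-Ea and H2-Ob were all between -0.08 and -0.04, and each took the other sign under cyclic loess normalization, at 0.03, 0.0021 and 0.03. The order of genes was looked at after the values were seen.

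**Figure D2:**
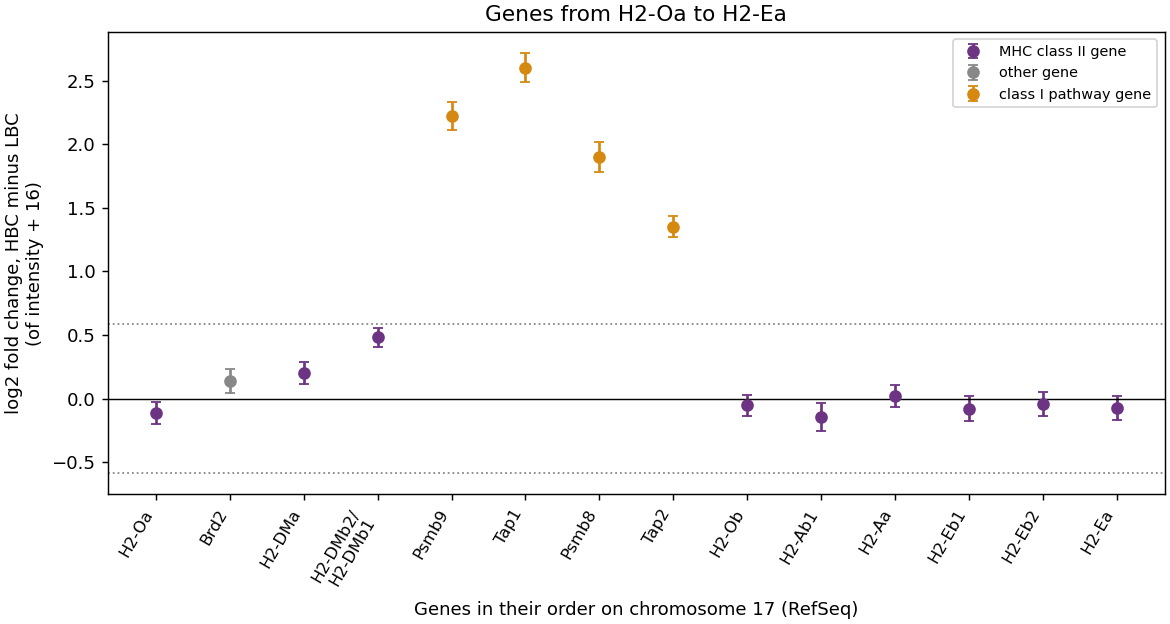
Log2 fold change in HBC relative to LBC, on the intensity + 16 scale, of the genes from H2-Oa to H2-Ea in their order on chromosome 17, with limma standard errors as bars (3 arrays per group) and dotted lines at a fold of 1.5. The 4 class I pathway genes (orange) lie between 1.35 and 2.60, and the class II genes (purple) lie inside the dotted lines.

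Nlrc5 does for class I genes what Ciita does for class II, and several of its clusters were called. It is covered by 19 clusters, of which 8 were called higher in HBC in the fit over every transcript cluster and 0 lower, against 1.88% of all clusters called higher. In 16 of the 19 the 3 HBC arrays lay above the 3 LBC arrays, as they did for 8.21% of all clusters. Log2 fold changes of the 19 ran from 0.06 to 1.15 with a median of 0.54. A cluster with a large change read 550.3, 704 and 505 in HBC, against 261, 272 and 273 in LBC (log2 fold change of 1.07, limma adjusted p = 5.9e-04). The cluster with the highest mean, which stands for the gene in the comparison of genes, was not called, at 674, 671 and 666 in HBC and 626, 608.5 and 629 in LBC (log2 fold change of 0.11, limma adjusted p = 0.41). Clusters of 1 gene share its transcripts and are not independent of each other. Ciita had a single cluster, which was not called.

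**Figure D3:**
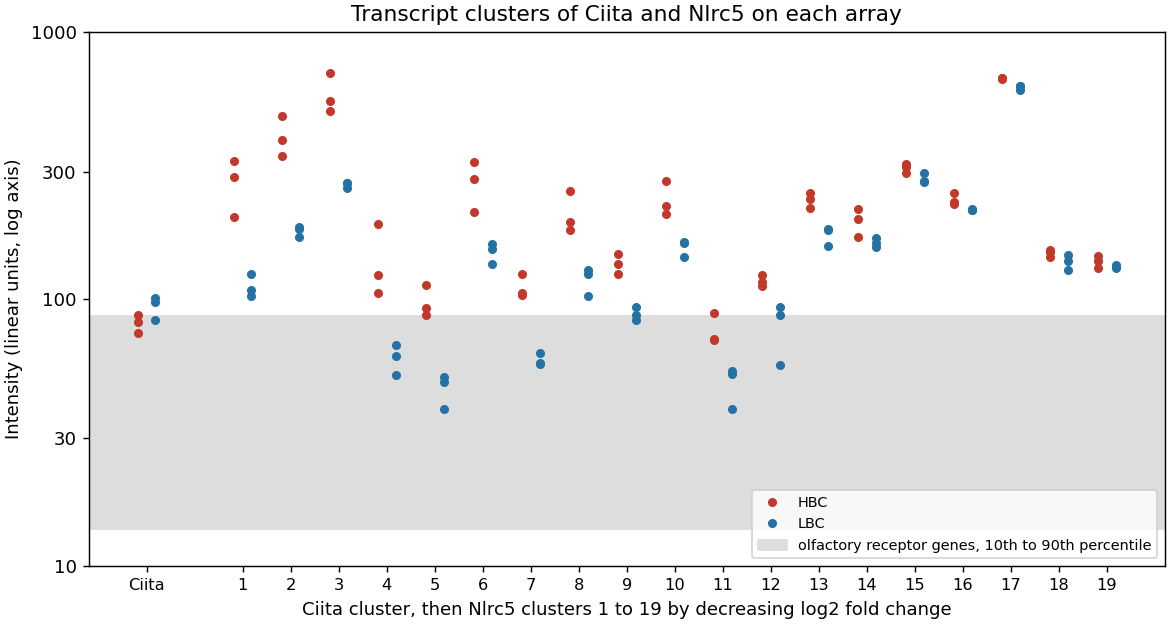
Array intensities, linear units drawn on a log axis, for the cluster of Ciita and the 19 clusters of Nlrc5, ordered by decreasing log2 fold change, with 3 HBC arrays in red and 3 LBC arrays in blue. The grey band is the 10th to 90th percentile of 1027 olfactory receptor genes, and Ciita lies at its upper edge in both groups, while 8 clusters of Nlrc5 were called higher in HBC.

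Most other genes of class I presentation were called higher in HBC as well. Of 9 tested, 7 were called higher in HBC, 0 lower and 2 were not called (B2m and Nlrc5). Over all genes, 2.54% were called higher and 1.13% lower. The median log2 fold change of the 9 was 0.99, against -0.12 for the 7 class II genes and -0.07 for all genes. Beside the 4 above, the loading factor Tapbp (0.98), the peptide-trimming enzyme Erap1 (0.80) and the immunoproteasome subunit Psmb10 (0.99) rose. H2-K1 and H2-D1, which encode class I heavy chains, were read only in 2 clusters that they share, with log2 fold changes of 1.29 and 1.35. B2m, the light chain of class I, read 6896, 7433 and 6602 in HBC, against 5408, 5622 and 5850 in LBC, with a log2 fold change of 0.31 (limma adjusted p = 0.0097) that was below the fold threshold. The genes were chosen with their behaviour in these arrays known.

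Genes of the proteins that read the X and Y boxes were above the olfactory receptor range in both populations. All 11 genes on the list of class II transcription had group means above its 90th percentile in HBC and in LBC. Limma called 0 of them, as did the methods' t-test, where limma called 3.67% of all genes. An unadjusted limma p under 0.05 was found for 3 of the 11, near the share of 29.9% over all genes. Rfx5, a subunit of the X box factor RFX, read 293.5, 318 and 283 in HBC, against 281, 305 and 320.0 in LBC (log2 fold change of -0.02). Its partners Rfxap and Rfxank had log2 fold changes of -0.16 and -0.10. Of the subunits of NF-Y, which binds the Y box, Nfyb had a log2 fold change of -0.31 (limma adjusted p = 0.011), and Nfya and Nfyc had -0.13 and 0.035. RFX and NF-Y are made in most cell types, whether or not class II is. Crem, a relative of Creb1, read 107, 95.6 and 106 in HBC, against 133, 139 and 152 in LBC, without overlap (log2 fold change of -0.40, limma adjusted p = 8.7e-04). Kat2b, an acetyltransferase that modifies Ciita, read 513, 518 and 473 in HBC, against 309, 328 and 352 in LBC. Its log2 fold change of 0.58 (limma adjusted p = 5.6e-06) was just below the fold threshold.

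On the route from interferon gamma to Ciita, the receptor and kinase genes lay above the olfactory receptor range, and Ifng itself lay inside it. Of 9 genes tested, limma and the methods' t-test called 0, where limma called 3.67% of all genes. An unadjusted limma p under 0.05 was found for 5, against 29.9% of all genes. By the limma adjusted p alone, 3 of the 9 were higher in HBC, against 6.93% of all genes. Irf1, a factor that acts on the interferon-responsive promoter of Ciita, read 851, 944 and 788 in HBC, against 606, 653 and 699 in LBC (log2 fold change of 0.39, limma adjusted p = 0.0019), and its dimmer cluster had a log2 fold change of 0.06. Socs1, a feedback inhibitor, had a log2 fold change of 0.37, and Jak1, a kinase of the receptor, one of 0.29. Ifngr1, a receptor chain, averaged 1125 in HBC and 1052 in LBC, and its partner Ifngr2 averaged 2262 in HBC and 2681 in LBC, with log2 fold changes of 0.10 and -0.24. Ifng read 62.5, 50.5 and 74.5 in HBC, against 66.7, 73.1 and 64.5 in LBC.

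Of 7 genes for cleavage of the invariant chain and processing of antigen, 1 was called, against 3.67% of all genes. Unadjusted limma p-values were under 0.05 for 5 of the 7 (4 higher in HBC and 1 lower), against 29.9% of all genes. By the limma adjusted p alone, 3 were higher in HBC and 0 lower, against 6.93% and 11.4% of all genes. Ifi30, a thiol reductase of the endocytic pathway that interferon gamma induces, read 1376, 1381 and 999 in HBC, against 722, 754.5 and 810 in LBC (log2 fold change of 0.69, limma adjusted p = 5.6e-06). The call was lost with the methods' t-test, whose adjusted p was 0.097. Ctss, the protease that cuts the invariant chain in antigen-presenting cells, read 103, 91.0 and 96.6 in HBC, against 105, 106 and 101 in LBC. The lysosomal protease Ctsl averaged 4580 in HBC and 5243 in LBC. Sppl2a, a protease that removes the last stub of the invariant chain, had a log2 fold change of 0.36 (limma adjusted p = 0.0030), and the lysosomal proteases Ctsd and Ctsb had 0.25 and 0.23. Among genes that set the turnover of surface class II, limma and the methods' t-test called 0 of 3. An unadjusted limma p under 0.05 was found for 2, against 29.9% of all genes. Marchf8, Cd83 and Marchf1 had log2 fold changes of 0.22, -0.18 and -0.11.

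Costimulatory and inhibitory ligands that antigen-presenting cells show beside class II were split. Of 6 genes, 2 were called higher in HBC, 0 lower and 4 were not called, against 2.54% of all genes called higher and 1.13% lower. Cd274, the gene of the inhibitory ligand PD-L1, read 204, 257 and 200.1 in HBC, against 116, 109.7 and 103 in LBC (log2 fold change of 0.90, limma adjusted p = 7.5e-09). Cd80, a costimulatory ligand, read 149, 149 and 155.5 in HBC, against 80.4, 77.6 and 86.4 in LBC in its brighter cluster (log2 fold change of 0.78, limma adjusted p = 2.0e-08). Its other cluster had a log2 fold change of 0.14 and was not called, and the mean of both gave 0.51, below the fold threshold. Cd86, the close relative of Cd80, read 27.9, 27.6 and 28.5 in HBC, against 38.3, 36.4 and 32.1 in LBC (log2 fold change of -0.23, limma adjusted p = 0.060). Cd40 and Pdcd1lg2 had -0.11 and -0.04. Cd4 and Lag3, receptors that bind class II on T cells, had log2 fold changes of -0.22 and -0.04, and neither was called. An unadjusted limma p under 0.05 was found for 1 (Cd4), against 29.9% of all genes.

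**Figure D4:**
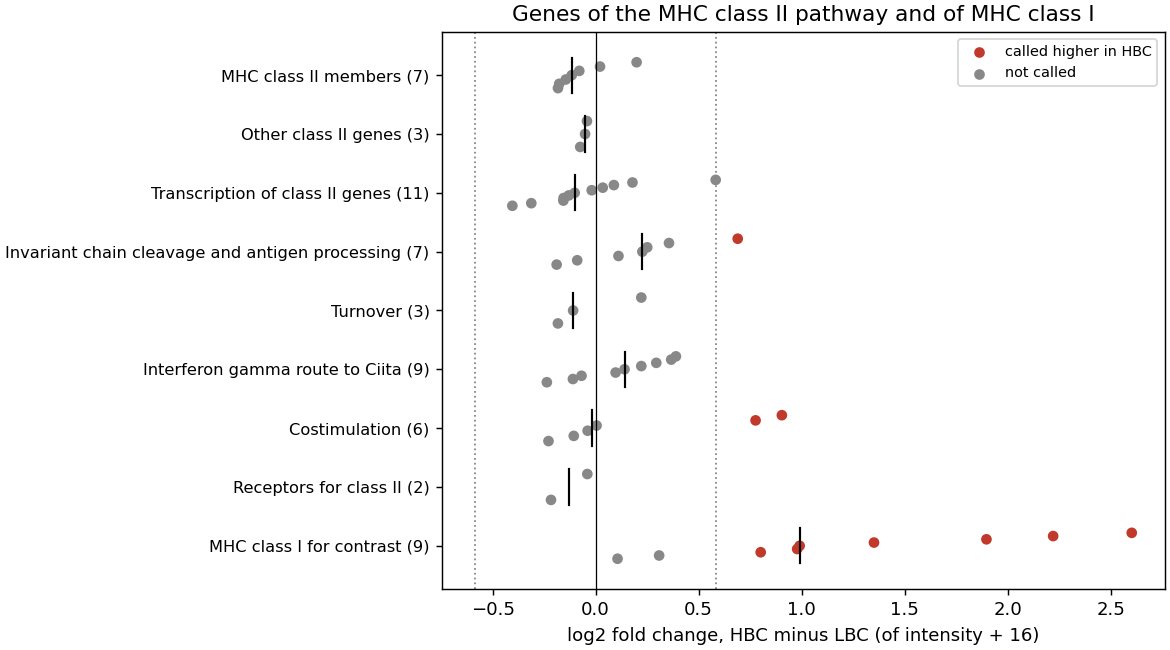
Log2 fold change in HBC relative to LBC, on the intensity + 16 scale, of the 7 class II genes read alone and of each list of related genes, with the number tested in brackets, black lines at the medians and dotted lines at a fold of 1.5. Red points were called higher in HBC and grey points were not called. Of the lists, 7 of 9 class I genes, 2 of 6 costimulatory genes and 1 of 7 processing genes are red, against 2.54% of all genes called higher.

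Markers of the cell types that carry class II constitutively were not called between HBC and LBC. Among preadipocyte markers, Pdgfra averaged 4096 in HBC and 3166 in LBC, Col1a1 4690 and 3685, and Pparg 1707 and 1360 in the same order. Cd34, at 134 in HBC and 188.5 in LBC, and Thy1, at 149 in HBC and 166 in LBC, were far dimmer. All 10 preadipocyte markers tested had group means above the olfactory receptor range. Of these 10, Eng and Col3a1 were called higher in HBC and Dcn lower, where 2.54% of all genes were called higher and 1.13% lower. Of 36 markers of macrophages, dendritic cells, B cells, T cells and endothelial cells, 0 were called by limma or by the methods' t-test. Limma called 3.67% of all genes. The log2 fold changes of the 36 ran from -0.48 (Cd14) to 0.10 (Mpeg1). Cd14 had a limma adjusted p of 8.9e-05 and missed only the fold threshold, where 11.4% of all genes were lower by the adjusted p alone. Of the 36, 34 had a log2 fold change below 0, as did 69.3% of all genes, and their median was -0.10, against -0.07 over all genes. An unadjusted limma p under 0.05 was found for 9 of the 36, all lower in HBC, where 20.4% of all genes passed it in that direction. Group means were above the 90th percentile of olfactory receptor genes for 14 of the 36 in HBC and 15 in LBC. The summed intensity of 12 macrophage markers was 974 to 1039 on the HBC arrays and 1101 to 1207 on the LBC arrays. Of these 12, 6 lay above the olfactory receptor range in each group, among them Cd68 (174 in HBC and 188 in LBC), Itgam (159 in HBC and 188.5 in LBC) and Cd14 (107 in HBC and 154.5 in LBC). Others lay inside it: Lyz2, an abundant macrophage transcript, averaged 30.9 in HBC and 38.8 in LBC, and Ptprc, found on all leukocytes, 59.8 in HBC and 69.9 in LBC. For 8 dendritic cell markers the sums were 789 to 893 in HBC and 822 to 968.5 in LBC, and for 6 B cell markers 404 to 429.7 in HBC and 419 to 483 in LBC. The dendritic cell markers were above the range for 4 of 8 in each group, and the B cell markers for 3 of 6, which were Cd79b (121 in HBC and 128 in LBC), Cd22 (102 in HBC and 116.5 in LBC) and Pax5 (85.8 in HBC and 86.3 in LBC). The other B cell markers included Ms4a1 (20.4 in HBC and 22.03 in LBC) and Cd79a (22.8 in HBC and 26.2 in LBC), which were dimmer than the median olfactory receptor gene, and no marker read 0. For 5 T cell markers the sums were 319 to 351 in HBC and 344 to 391 in LBC, and for 5 endothelial markers 242 to 293 in HBC and 257 to 315 in LBC. What these markers contribute to the values of the class II genes was not tested.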

How the data were processed

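Affymetrix Expression Console, named in the submitters' processing notes, gave the deposited intensities, which the authors left on a linear scale. The sources used here do not state its version, how probes were summarised or how arrays were scaled to each other. Of 35556 transcript clusters, 21789 carried 1 gene symbol in the platform annotation, 1621 several and 12146 none. The cluster with the highest mean was used for each of 999 genes that had more. HBC was set against LBC in limma 3.58.1 (R 4.3.3; lmFit, eBayes) on log2(intensity + 16), with Benjamini-Hochberg adjustment over 19938 genes, or over all clusters for shared and further clusters. With 24.9 prior and 4 residual degrees of freedom, the size of very small adjusted p-values rests mostly on the pooled variance. The fit was tested on simulated data. The 8 genes, the lists and the olfactory receptor reference were chosen with earlier results of these data known. The rule for names took the 8 genes, the other class II genes, Nlrc5, per list the genes called and up to 3 more with the largest change, up to 4 markers per cell type, the 3 genes most like Ciita, and promoter stretches with an X and a Y box. Named after their values were seen were Ctss, Ctsl, Ifng, Ifngr1, Ifngr2, Rfx5, Rfxap, Rfxank, Nfya, Nfyc, Brd2, H2-K1, H2-D1, Cd34, Thy1, Cd68, Itgam and Pax5. Entrez identifiers matched RefSeq for all 7 genes read alone. RefSeq of GRCm38.p6 gave gene order and promoters. The number of arrays limits the precision. Alternatives were other offsets, scalings, filters on dim genes, variance priors and thresholds, the methods' t-test, the mean of clusters, every cluster, a replicate block, other silent genes and leaving out arrays. Leaving out both LBC arrays whose source names read HBC was added after seeing the data.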

Additional observations from a re-analysis of the deposited data

Results flagged for a closer look

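The shared cluster of H2-DMb1 and H2-DMb2 lies outside the comparison of genes, because it carries both symbols, and it was higher in HBC than in LBC, with a log2 fold change of 0.48 and a fold of 1.40. Which of the 2 genes it reads cannot be told apart.

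For Nlrc5, 8 transcript clusters that do not stand for the gene in the comparison of genes were called higher in HBC, while the brightest cluster, which does, was not called.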

How the results depend on the processing

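The count of class II genes called stayed at 0 under all alternatives, in which 7 genes were tested, except that 1 was left with the methods' filter (H2-DMa) and 4 with the filter on the olfactory receptor range. The counts over all genes (732) and over the related genes (10) changed by more than 1.5 times only with the threshold, to 3655 and 19 without a fold and 280 and 4 at a fold above 2. Leaving out 1 array, they ran from 710 to 784 and from 10 to 11. The 507 higher and 225 lower genes were 592 and 165 with cyclic loess. Class II genes above the range of silent genes numbered 3 in HBC and 4 in LBC, 1 and 0 against the 95th percentile of olfactory receptor genes, and 5 and 5 against vomeronasal receptor genes. Without HBC replicate 2 the count in HBC was 2. Signs that turned were all of values not called, with adjusted p of 0.69 or more: cyclic loess gave H2-Ea 0.0021, H2-Eb1 0.0042, H2-Eb2 0.034 and H2-Ob 0.032; quantile normalization gave H2-Eb2 0.026 and H2-Ob 0.013, and median centring gave H2-Eb2 0.0028. Leaving out 1 array, H2-Aa ran from -0.0196 to 0.0448, H2-Ab1 from -0.25 to 0.0275, H2-Ea from -0.16 to 0.03 and H2-Eb2 from -0.13 to 0.0022. Without both LBC arrays whose source names read HBC, H2-Aa was -0.0133 and H2-Ob 2e-04. Replicate numbers did not pair the arrays, whose deviations correlated at -0.096, -0.24 and -0.50 for the same number. For different numbers the correlations ran from -0.47 (HBC replicate 2 and LBC replicate 1) to 0.495 (HBC replicate 3 and LBC replicate 1). A replicate block in the fit, which follows the numbers, gave 732 calls over all genes, 10 among the related genes and 0 among the class II genes. The cause was not tested for any of these. Dim signal limits what can be said of the class II genes.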
